A study of Mus musculus with 3 samples.

Results

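The 10 genes examined here encode the transcription factors that steer stem and progenitor cells of the blood toward myeloid fates or hold them as progenitors. They are Cebpa, Cebpb, Cebpd, Cebpe, Spi1, Gfi1, Ikzf1, Myb, Myc and Mycn. A probe was taken if its gene name in the array files was a member's, which gave 17 probes for the 10 genes, out of 56600 probes for 37322 genes. All 17 probes were well above background on every array, so each member could be compared on all 3 arrays. No member differed 2-fold between any pair of arrays at its brightest probe. Relative to WT, Cebpb was 1.76-fold lower on the array labelled Atmp38dKO, and Cebpd was 1.88-fold higher on the AtmsKO array.

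The C/EBP factors are basic leucine zipper proteins that bind DNA as dimers. C/EBPα opens the granulocyte and monocyte program, C/EBPβ replaces it when demand is high, as in infection, and C/EBPδ and C/EBPε act in stress and in late granulocyte maturation. PU.1, the product of Spi1, is an ETS factor that is needed for myeloid and early lymphoid cells, and GFI1 is a zinc finger repressor that favors granulocytes and restrains stem cell division. Ikaros, the product of Ikzf1, primes stem cells for lymphoid fates, MYB keeps progenitors dividing and undifferentiated, and MYC and N-MYC drive growth and ribosome production as dimers with MAX.

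The RNA was that of LT-HSCs (long-term hematopoietic stem cells, which sit in the bone marrow and can rebuild the blood) of C57BL/6J mice. The LSK cells (negative for lineage markers, positive for Sca-1 and c-Kit) were sorted as CD150+CD48-Flt3-CD34- per the labels, and the methods add CD41-. AtmsKO cells came from CAG-CreERT2::Atmflox/flox mice and Atmp38dKO cells from CAG-CreERT2::Atmflox/flox p38αflox/flox mice, both given tamoxifen (TAM) to delete Atm, the kinase that answers DNA breaks, or Atm together with p38α, the stress kinase encoded by Mapk14. The labels give an age of 11 weeks, whereas the series text places TAM at about 5 weeks of age and the analysis 4 weeks later. Per the methods, WT controls had floxed alleles and TAM but no Cre. CAG is a promoter active in most tissues, so the deletion was not limited to blood cells, and the number and sex of the mice behind an array are not given. Each genotype was read on 1 Agilent array, all 3 on the same slide and scan. There are therefore no replicates, no test was run, and every difference below is between arrays, not shown to be between genotypes.

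The probes that the comparisons turn on are given here as they are on the array, 5′ to 3′, with coordinates of mm9. The first 3 belong to Ikzf1, which gave probes that disagreed. Of the last Ikzf1 probe the first 30 bases are printed, and the capitals mark the letters GTAAG, which begin at base 14.

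Ikzf1, chr11:11658319-11661278: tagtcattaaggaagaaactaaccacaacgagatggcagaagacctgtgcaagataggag

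Ikzf1, chr11:11658239-11658298: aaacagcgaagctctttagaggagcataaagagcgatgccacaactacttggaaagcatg

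Ikzf1, chr11:11661344-11661403: cagaaatttcttgGTAAGagttaaatgttt

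The next 4 are probes in the coding part of Myb, Spi1 and Myc, with no part in capitals. The Myb probes differed from each other, and those of Spi1 and Myc read lower on the array labelled Atmp38dKO. The Spi1 probe and the first Ikzf1 probe span 13788 and 2960 bases of the genome and so cross a splice junction.

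Myb, chr10:20872381-20872440: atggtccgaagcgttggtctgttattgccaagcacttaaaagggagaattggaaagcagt

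Myb, chr10:20861577-20861636: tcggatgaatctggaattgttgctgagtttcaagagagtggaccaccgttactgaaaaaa

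Spi1, chr2:90939665-90953452: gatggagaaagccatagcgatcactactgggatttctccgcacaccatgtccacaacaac

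Myc, chr15:61820925-61820984: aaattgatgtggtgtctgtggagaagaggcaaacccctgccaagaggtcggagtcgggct

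Signals are processed intensities from the scanner software, which also gives each an error, between 10% and 15.6% for these probes. Arrays were set on the same scale by dividing by their 75th percentile, which was 101.5 for WT, 96.2 for AtmsKO and 117.8 for the array labelled Atmp38dKO. A level is the log2 of that quotient, and a difference is between levels, so an equal signal on the array labelled Atmp38dKO stands for a lower level than on the WT array. The signal error corresponds to 0.20 to 0.30 on a log2 difference. As a second yardstick, genes were sorted into 20 bins of like level, and the central 95% of the differences within a bin of about 1278 genes is given as the range of like genes. It describes these arrays and is not a test.

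Of the targeted genes, Atm was lower on the AtmsKO array, and the array labelled Atmp38dKO followed its label only in part. The 2 Atm probes gave signals of 87.0 and 88.8 for WT, of 23.9 and 16.3 for AtmsKO, and of 86.5 and 49.0 for the array labelled Atmp38dKO. The Atm levels of the latter differed from WT by -0.22 and -1.07, so the probes disagreed in size. Mapk14 signals were 469 and 295, 558 and 260, and 616 and 345 in the same order, so Mapk14 was not lower on the array labelled Atmp38dKO, and a direction drawn from that array rests on its label. Whether these probes lie in the deleted exons was not examined. Of 14 HSC markers 14 were well above background on every array. Of 7 genes for surface proteins that the sort excluded, 6 were well above background on every array. At the brightest probe of each, the signals over the arrays were 4.77 to 7.96 for Cd8a, 15.3 to 18.4 for Ly6g, 17.2 to 34.0 for Cd48, 70.3 to 100.8 for Flt3, 448 to 608 for Cd4, 1666 to 2185 for Cd34 and 32383 to 33895 for Itgam. The messages of Cd34, Cd4 and Itgam were thus read in cells sorted as CD34- and negative for lineage markers, and Itgam was the brightest of the 7. In sorted bulk RNA, fewer cells of a type and less RNA per cell cannot be told apart.

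Cebpa was nearly level across the arrays. At chr7:35906517-35906576 it gave a signal of 147 for WT, 145 for AtmsKO and 184 for the array labelled Atmp38dKO. The differences from WT were 0.060 and 0.11 on the log2 scale, both under the signal error of 0.20. The factor that starts the granulocyte and monocyte program therefore showed no difference that these arrays could resolve.

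Taking the brightest probe of each gene, Cebpb differed most from WT among the members on the array labelled Atmp38dKO. Its signal at chr2:167515828-167515887 was 1138 for WT, 1014 for AtmsKO and 752 for the array labelled Atmp38dKO. The AtmsKO level differed from WT by -0.090, within the signal error, whereas the level of the array labelled Atmp38dKO differed by -0.81 from WT and by -0.72 from AtmsKO. Both values lay below the ranges of like genes, which were -0.52 to 0.49 and -0.56 to 0.43. Over the alternatives of scaling and background the difference from WT ran from -0.83 to -0.73. No other member lay outside its range in any comparison, which made 0, 1 and 1 of 10 members in the 3 comparisons. A range of the central 95% leaves some genes out by its making. A count of 0 or 1 among 10 is close to the share it leaves out. Both Cebpb values outside it also share an array.

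Of the 10 members 6 had an entry in the RefSeq promoter table (build GRCm38.p6), and the Cebpb promoter is printed because this gene left the range of like genes. The 250 bases before the start site are chr2:167688665-167688914 on the plus strand. Capitals mark TGACG or its reverse complement CGTCA, the core of the site that CREB and ATF factors bind.

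Cebpb promoter: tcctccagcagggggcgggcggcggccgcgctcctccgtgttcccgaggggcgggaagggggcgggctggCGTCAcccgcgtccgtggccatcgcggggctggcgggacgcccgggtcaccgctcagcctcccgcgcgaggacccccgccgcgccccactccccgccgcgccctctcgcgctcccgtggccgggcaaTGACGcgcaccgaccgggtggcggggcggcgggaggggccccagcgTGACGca

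The letters occurred 3 times, beginning 180, 53 and 7 bases before the start site. They were in 17.8% of 32851 promoters of that length, searched on both strands, and in none of the other 7 entries, which belonged to Cebpa, Gfi1, Ikzf1, Myb and Mycn. Spi1, Myc, Cebpd and Cebpe had no entry. Whether Spi1 and Myc, also lower on the array labelled Atmp38dKO, hold the letters was therefore not examined. This Cebpb window held neither CCAAT, which 33.8% of all promoters held, nor TATAAA, held by 12.4%, nor CACGTG, the letters of the MYC site, held by 6.02%. A match is a description of the letters, and no binding was measured.

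Cebpd and Cebpe, the dim members of the family, were higher on the AtmsKO array only. The Cebpd signal at chr16:15888459-15888518 was 17.2 for WT, 30.8 for AtmsKO and 19.6 for the array labelled Atmp38dKO. This made 0.91 against WT for AtmsKO, -0.028 for Atmp38dKO, and -0.94 between both mutants. The Cebpe signal at chr14:55329200-55329259 was 8.88, 12.9 and 9.95 in the same order, with differences of 0.61, -0.051 and -0.66. Neither gene left the range of like genes, which for Cebpd ran from -1.46 to 1.46 in the first comparison and for Cebpe from -0.73 to 0.99. Probes counted as well above background started at signals of 4.97 to 6.12 on these arrays, close to the Cebpe values. Under another background correction (normexp) the difference of AtmsKO from WT was 0.33 for Cebpd and 0.17 for Cebpe, and that between both mutants -0.37 and -0.25.

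Spi1 ran with Cebpb in direction. Its signal was 376 for WT, 324 for AtmsKO and 286 for the array labelled Atmp38dKO. The difference from WT was -0.14 for AtmsKO, under the signal error, and -0.61 for Atmp38dKO, or 1.53-fold lower. The range of like genes was -0.72 to 0.72, so the PU.1 message stayed within it. With the normexp background correction the difference was -0.46, which is under 1.5-fold.

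Gfi1 was read by 2 probes of the same transcript, and both gave the same order of arrays. At chr5:108145719-108145778 the signal was 53.9 for WT, 60.8 for AtmsKO and 68.4 for the array labelled Atmp38dKO, with differences from WT of 0.25 and 0.13. At chr5:108152798-108152857, toward the 5′ end, it was 29.3, 34.4 and 37.3, with differences of 0.31 and 0.13. The AtmsKO differences passed the signal errors of 0.21 and 0.22, and those of Atmp38dKO did not. With normexp the AtmsKO difference at the first probe was 0.15, under that error.

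The Ikzf1 probes disagreed in sign in both comparisons with WT. At the brightest probe, the junction probe printed above, the signal was 244 for WT, 238 for AtmsKO and 348 for the array labelled Atmp38dKO, which made differences from WT of 0.042 and 0.30. The probe at chr11:11671462-11671521 gave 106, 130 and 193, with differences of 0.37 and 0.65, and the probe at chr11:11658239-11658298 gave 42.4, 45.9 and 56.3, with 0.19 and 0.19. At these 3 probes the level was thus highest, or level with AtmsKO, on the array labelled Atmp38dKO.

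The remaining Ikzf1 probe, at chr11:11661344-11661403, ran the other way. Its signal was 53.0 for WT, 20.7 for AtmsKO and 32.5 for the array labelled Atmp38dKO, with differences from WT of -1.28 and -0.92. It was the only 1 of the 17 probes to differ 2-fold, at 2.42-fold lower on the AtmsKO array, and it stayed within the range of like genes, -1.47 to 1.49. The files assign it to an Ensembl transcript (ENSMUST00000048122) and the other 3 to RefSeq transcripts, and it begins 66 bases past the end of the junction probe. The letters GTAAG in it, shown in capitals above, are those that commonly begin an intron, and whether the probe reads the same messages as its neighbors was not tested.

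Myb had 3 probes, and on the array labelled Atmp38dKO their differences from WT ran in order from the 5′ to the 3′ end of the message. The probe nearest the 5′ end, at chr10:20872381-20872440 in the DNA-binding part, read 1750 for WT, 1521 for AtmsKO and 1509 for the array labelled Atmp38dKO, whose difference from WT was -0.43. The middle probe, at chr10:20861577-20861636, read 815, 812 and 922, a difference of -0.037. The probe nearest the 3′ end and brightest, at chr10:20844736-20844795, read 1899, 1806 and 2319, a difference of 0.073. On the AtmsKO array the 3 differences were -0.13, 0.071 and 0.0049, all under the signal error. The Myb level thus depended on the probe in the comparison of Atmp38dKO with WT and in no direction exceeded the range of like genes, -0.62 to 0.40 at the first and the last of these probes.

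Myc was lower on the array labelled Atmp38dKO at both of its probes. At chr15:61820925-61820984 the signal was 2060 for WT, 1888 for AtmsKO and 1854 for the array labelled Atmp38dKO, with differences from WT of -0.048 and -0.37. At chr15:61821417-61821476 it was 819, 773 and 699, with differences of -0.0075 and -0.45. Both probes thus put AtmsKO level with WT and Atmp38dKO below it by more than the signal error, inside the ranges of like genes. Mycn, at chr12:12942981-12943040, read 418, 504 and 505, and its differences from WT were 0.35 for AtmsKO and 0.059 for Atmp38dKO. The Myc and Mycn levels therefore differed on different arrays.

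**Figure D1:**
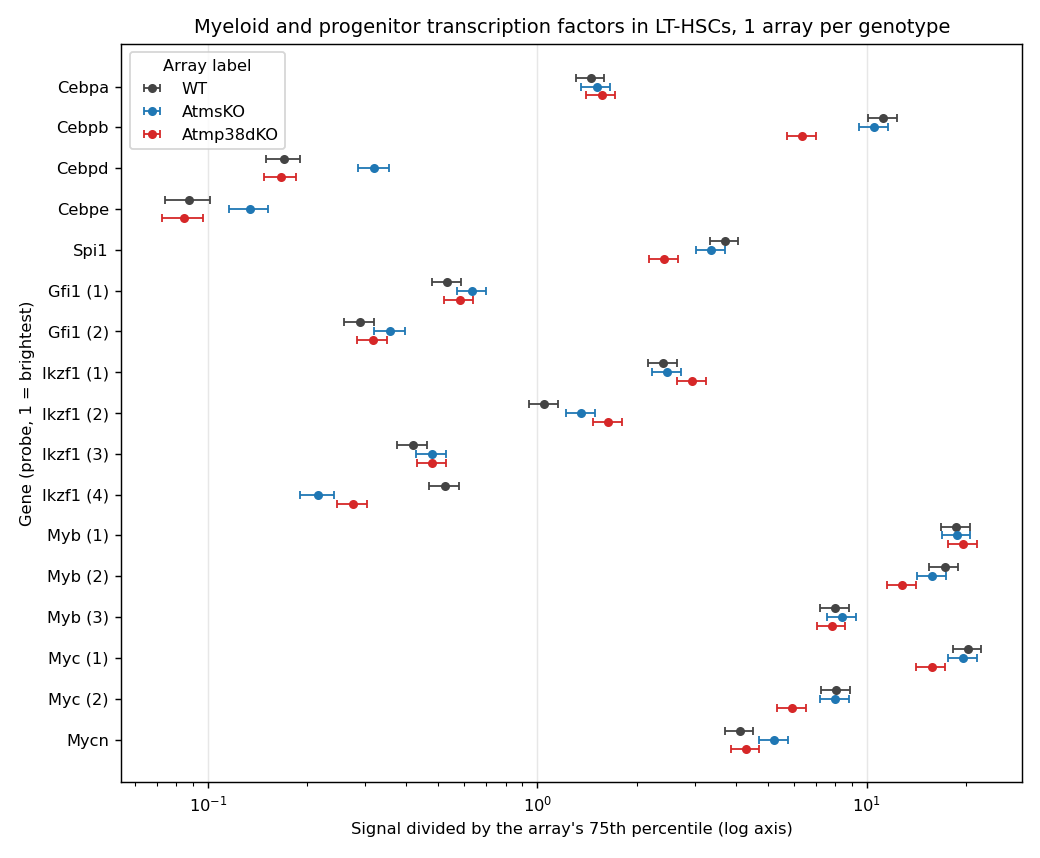
Signal of each of the 17 probes divided by the 75th percentile of its array (log axis), with the error of the scanner software as bars, for the arrays labelled WT (gray), AtmsKO (blue) and Atmp38dKO (red), 1 array each. Arrays are to be compared within a row, since probes differ in brightness. The Cebpb, Spi1 and Myc rows and the second Myb row have the red point to the left. The Cebpd and Cebpe rows have the blue point to the right, and the fourth Ikzf1 row the gray point to the right.

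**Figure D2:**
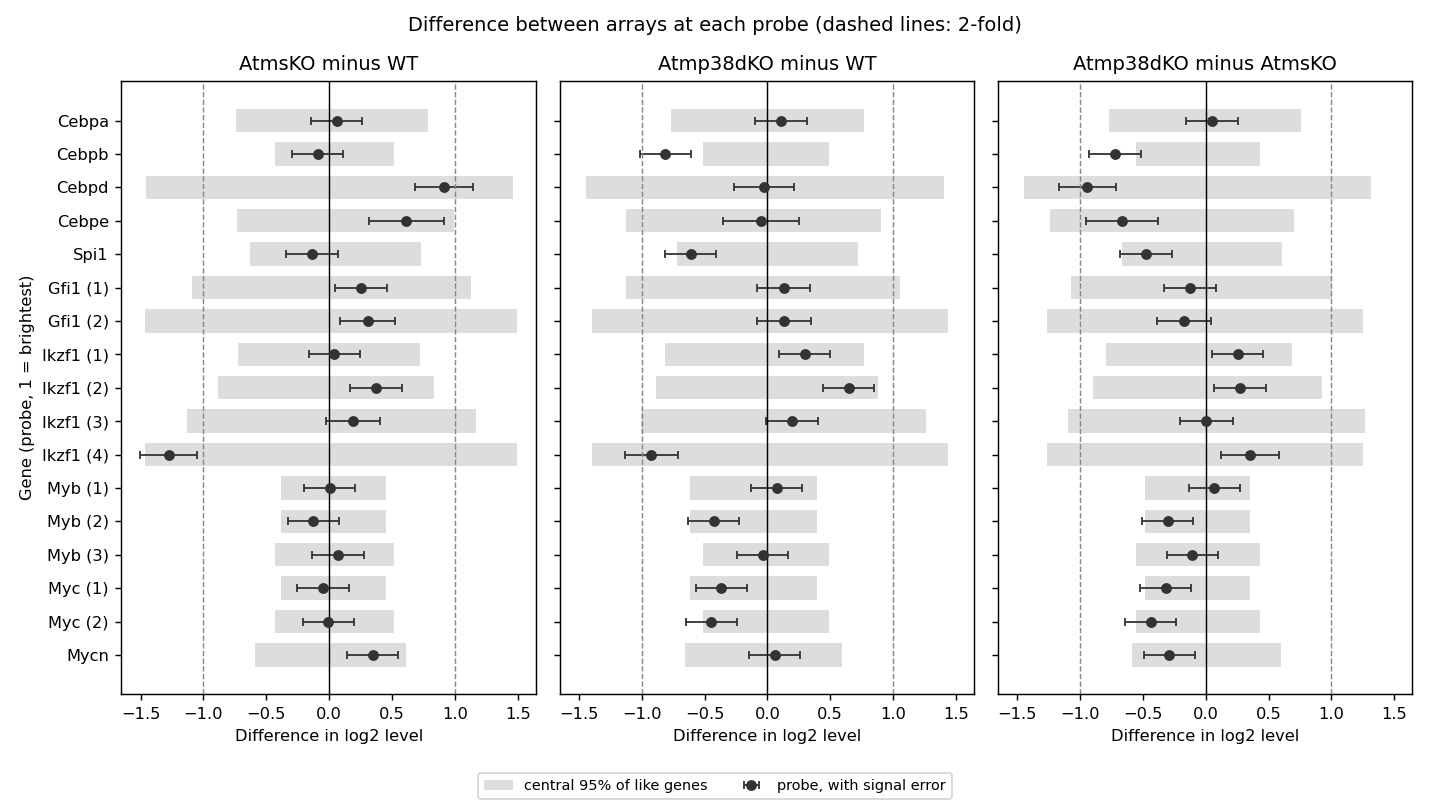
Difference in log2 level at each probe in the 3 comparisons, with the signal error as bars and the central 95% of genes of like level as gray bands. Cebpb leaves its band in both comparisons with the array labelled Atmp38dKO, at -0.81 and -0.72, and the fourth Ikzf1 probe at -1.28 is the only point past a dashed 2-fold line.

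In AtmsKO against WT 0 of 10 members were 2-fold higher and 0 of 10 lower, where 3.86% and 4.04% of 29043 genes were. In Atmp38dKO against WT it was again 0 and 0, beside 3.98% and 4.46% of 30669 genes. In Atmp38dKO against AtmsKO it was 0 and 0, beside 3.72% and 3.64% of 30217 genes. A count of 0 among 10 genes is close to these background shares. The 3 comparisons share arrays and are not independent.

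At 1.5-fold a few members were counted. In AtmsKO against WT 2 of 10 were higher, Cebpd and Cebpe, beside 10% of all genes, and 0 were lower, beside 10.2%. In Atmp38dKO against WT 0 were higher, beside 10.9%, and 2 were lower, Cebpb and Spi1, beside 10.6%. In Atmp38dKO against AtmsKO 0 were higher, beside 10%, and 3 were lower, Cebpb, Cebpd and Cebpe, beside 8.76%. With 10 genes, counts of 2 and 3 are too small to set apart from these shares. All the genes counted at this threshold were C/EBP factors or Spi1, and Gfi1, Ikzf1, Myb, Myc and Mycn gave none at their brightest probes. Of the genes counted, only Cebpb lay outside its range of like genes. With normexp, tried at this threshold after the data were seen, the counts were 0, 1 and 1, and Cebpb was the gene left in both comparisons with the array labelled Atmp38dKO.

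The median difference over the members was 0.051 in AtmsKO against WT and 0.015 in Atmp38dKO against WT, where the medians of all genes were 0.0076 and 0.020. In Atmp38dKO against AtmsKO the median was -0.30 with 7 of 10 members lower, and that of all genes was -0.0045. Of the 7 further probes of the 4 genes with several, 5, 4 and 5 had the sign of the brightest probe.

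Relatives of the members and the partners of MYC, such as Max and the Mxd repressors, had medians near 0. Of 21 genes 18 were well above background on every array, and their medians were 0.0042, 0.022 and 0.054 in the 3 comparisons. Spic, a PU.1 relative of red pulp macrophages, was 2-fold different and well above background on both arrays, at 17.2 for WT and 35.2 for AtmsKO, a difference of 1.11. It was dim like Cebpd, whose like genes ran from -1.46 to 1.46 in that comparison. Mybl1, a MYB relative, gave 23.6 for WT, 4.88 for AtmsKO, which was not well above background, and 32.5 for the array labelled Atmp38dKO. Its AtmsKO level was thus at least 3.65-fold lower than WT.

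Granulocyte and monocyte genes that C/EBP factors or PU.1 are known to activate were next. Of 36 genes 32 were well above background on every array and Ccr2 on none. Their medians were 0.11 in AtmsKO against WT, 0.016 in Atmp38dKO against WT and -0.21 in Atmp38dKO against AtmsKO, with 24 of 35 genes lower in the last. Counts at 2-fold were 1 higher and 0 lower of 32, 2 and 1 of 35, and 2 and 1 of 35. The shares of all genes were 3.86% and 4.04%, 3.98% and 4.46%, and 3.72% and 3.64%. Irf8, a monocyte and dendritic cell factor, was 6.17 for WT and 12.0 for AtmsKO, a difference of 1.04. Cd33, a surface lectin of myeloid cells, was 14.2 for WT and 7.05 for the array labelled Atmp38dKO, a difference of -1.23. The 2 genes higher in that comparison were Fcnb, at 6.00, 5.47 and 19.6 over the arrays, and Fcgr2b, at 2.20, 1.76 and 12.6. Neither was well above background for WT or AtmsKO. Fcnb was also counted higher in Atmp38dKO against AtmsKO. Between AtmsKO and Atmp38dKO, Cybb, the oxidase subunit of phagocytes, was 12.3 and 35.5, a difference of 1.24, and Retnlg, a secreted neutrophil protein, was 19.5 and 10.02, a difference of -1.25. All these genes were dim, and signals well above background began at 4.97 to 6.12, close to the lower Irf8 and Cd33 values. Ranges of like genes were not computed for them.

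Genes that MYC is known to activate, for ribosomes, translation and nucleotides, showed no 2-fold difference. All 52 were well above background on every array, and their medians were 0.084, 0.030 and -0.097 in the 3 comparisons. Where Myc was 0.37 lower, in Atmp38dKO against WT, 30 of the 52 were higher and 22 lower.

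Of 9 genes that GFI1 is known to repress, the medians were -0.040, -0.092 and -0.029. Cdkn1a, the cell cycle inhibitor p21 and also a target of p53, was 213 for WT, 94.7 for AtmsKO and 135 for the array labelled Atmp38dKO, with differences from WT of -1.10 and -0.88, and its other measured probes had the same sign in both. Ets1 was 95.1 for AtmsKO and 56.4 for the array labelled Atmp38dKO, a difference of -1.05, but its other measured probe had the opposite sign. Of 12 lymphoid priming genes, many of which need Ikaros, 6 were well above background on every array, and Il7r, Rag1 and Rag2 on none. Vpreb1, of the pre-B cell receptor, was 32.7 for WT and 16.1 for the array labelled Atmp38dKO, a difference of -1.24.

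Immediate early and stress genes, which cells switch on quickly after a stimulus, were the list with the largest median difference in both comparisons with the array labelled Atmp38dKO, where Cebpb, Myc and Spi1 were lower too. All 20 were well above background on every array. In Atmp38dKO against WT 11 of 20 were 2-fold lower and 0 higher, with a median of -1.11, and in Atmp38dKO against AtmsKO 6 were lower, with a median of -0.78. In AtmsKO against WT 2 were lower, with a median of -0.30. In the same order, 4.46%, 3.64% and 4.04% of all genes were 2-fold lower, and the medians of all genes were 0.020, -0.0045 and 0.0076. Atf3, a stress-induced partner of C/EBP factors, was 440 for WT, 267 for AtmsKO and 131 for the array labelled Atmp38dKO, whose difference from WT was -1.96. Jun, a subunit of AP-1, was 3652, 2740 and 1318, a difference of -1.68. The heat shock genes Hspa1a and Hspa1b, near-identical copies whose probes may share RNA, differed by -2.03 and -2.06. They were also the 2 genes counted lower in AtmsKO against WT, at -1.24 and -1.18. Between both mutants they differed by -0.79 and -0.89. The part of this list in the Cebpb, Spi1 and Myc values was not tested.

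**Figure D3:**
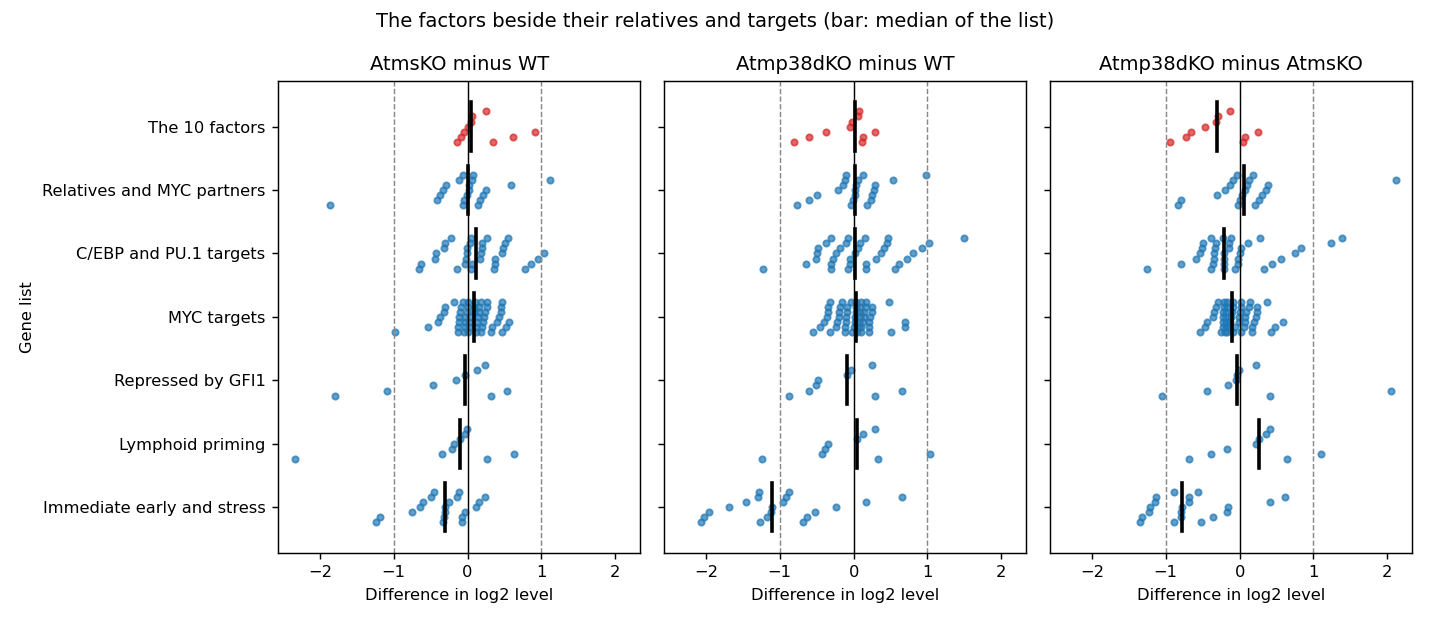
Difference in log2 level in the 3 comparisons for the 10 members (red) and for the genes of each list well above background on at least 1 of the 2 arrays (blue), with the median of the list as a black bar and 2-fold as dashed lines. No red point passes a dashed line, and the immediate early and stress genes lie to the left, with medians of -0.30, -1.11 and -0.78.

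Markers of other cells were summed per array as multiples of its 75th percentile. In the order WT, AtmsKO and Atmp38dKO as labelled, 6 granulocyte-monocyte progenitor markers summed to 8.04, 9.61 and 9.06, and 10 mature granulocyte markers to 28.0, 33.5 and 31.9. The 9 monocyte and macrophage markers summed to 35.6, 34.5 and 33.9, with Ccr2 and Cx3cr1 not well above background anywhere. Csf1r, at 2530, 2058 and 2492, was the brightest of them. Their medians against WT, 0.26 for AtmsKO and 0.051 for Atmp38dKO, had the opposite direction to the sums. The granulocyte and progenitor sums were thus highest on the AtmsKO array, where Cebpd and Cebpe were highest too, and their part in those values was not tested. The 9 B-lineage markers summed to 6.51, 6.22 and 6.37, the 8 T and NK cell markers to 8.44, 8.83 and 10.5, and the 8 erythroid markers to 4.01, 3.49 and 4.75. The erythroid median in AtmsKO against WT was 0.30, although the erythroid sum was lower for AtmsKO. The 7 megakaryocyte markers summed to 17.4, 31.9 and 19.6, the 7 mast cell and basophil markers to 1.46, 1.62 and 0.96, and the 4 endothelial markers to 1.62, 2.51 and 1.44. Single genes carried the largest steps of these sums. Pf4 read 1020, 2366 and 1536, while the megakaryocyte median in AtmsKO against WT was 0.0060. Mcpt1 read 75.9, 70.6 and 2.19, the last not well above background, and Kdr read 5.88, 114 and 18.1. HSC markers summed to 90.3, 88.9 and 78.8, with a median of -0.37 in Atmp38dKO against WT.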

How the data were processed

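Total RNA of sorted LT-HSCs was labelled with Cy3 and read on 1 Agilent array per genotype. The deposited intensity values were made for the authors with Agilent Feature Extraction 11.5.1.1, per the file headers, by background subtraction and detrending within an array. The deposited table of log2 values equals log2 of that intensity minus the 75th percentile of the array, within 0.02 for 99.6% to 99.8% of probes. It was used as an alternative.

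Control and outlier spots were left out, spots of a probe were averaged, and log2 intensity minus the 75th percentile over non-control probes was used. A level not well above background was set to at least the lowest level that was. The brightest probe stood for its gene. Genes were counted at 2-fold if well above background on the brighter array. The median spot SD of probes printed repeatedly was 0.05 on the log2 scale. The number of arrays limits the precision.

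RefSeq accessions (GRCm38.p6, names only) named probes, and others kept the file's name. Named genes were all members and, per list of relatives or targets, up to 4 genes at least 2-fold different and well above background on both arrays, and Atm and Mapk14. The result of 1 gene that this rule names is left out. Mybl1, Fcnb, Fcgr2b, Pf4, Mcpt1, Kdr and the HSC and sort markers named were added after their values were seen. The members and lists were chosen with earlier results of these data known. Functions were tested on simulated data. Python 3.11.15, pandas 2.3.3 and limma 3.58.1 (normexp) were used.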

Additional observations from a re-analysis of the deposited data

How the results depend on the processing

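The count of members at 2-fold was 0 in all 3 comparisons under every alternative of scaling, background, filter and probe summary but quantile normalization, which counted 1 member (Cebpd, just past 2-fold lower) in Atmp38dKO against AtmsKO. It was also 0 at 8-fold, and at 1.5-fold it was 2, 2 and 3. The counts at 1.5-fold were the same under the other alternatives, added after the data were seen, but 0, 1 and 1 with normexp. The median over the members in Atmp38dKO against AtmsKO was -0.22 with normexp, against -0.30. Of the 30 differences of single members, 11 moved by more than the spread of repeated spots with normexp, 3 with quantile normalization, 4 with the mean over all probes and 0 with median centring. All member probes were well above background, so the filters and the floor could not move them, and the deposited log2 values are built like the measure used here. With the mean over all probes 4 differences changed sign, with normexp 1 and with quantile normalization 1. Averaged over all its probes, Ikzf1 was -0.17 in AtmsKO against WT, against 0.042. No paired analysis was possible because a group is a single array, and for the same reason no replicate could be left out. Dim genes such as Cebpe are limited by their nearness to the background.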
